A study of Mus musculus with 4 samples.

Results

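The genes of the lysosomal proton pump, the cathepsins, the lysosomal membrane glycoproteins Lamp1 and Lamp2 and the Ragulator complex were examined in regulatory T (Treg) cells held with or without thymic stromal lymphopoietin (TSLP), a cytokine of epithelial cells. They were taken by name, as every row called Atp6v or Atp6ap followed by a subunit, Cts followed by a letter, Lamp1, Lamp2 or Lamtor1 to Lamtor5. This gave 50 of the 24418 genes listed, of which 9 belong to the membrane sector of the pump (V0), 13 to its cytosolic sector (V1), 3 to its accessory proteins, 18 to the cathepsins, 2 to the LAMP glycoproteins and 5 to Ragulator. The mice were Foxp3 YFP-Cre, sex-matched and 8 to 12 weeks old, and Treg cells sorted from their lymph nodes and spleens were stimulated for 3 h with TSLP at 100 ng/mL or with PBS as the control, which gave 2 libraries in each group (PBS 1, PBS 2, TSLP 1 and TSLP 2). All 4 libraries carry the same allele, in which the Foxp3 locus drives a fusion of yellow fluorescent protein and Cre, and no further allele is named. The sources used here do not say whether the libraries of a group came from separate mice, so that p-values measure the spread between these libraries, which may be technical. The libraries held 11328132, 10724392, 11761234 and 10271571 reads on genes, and a gene without reads may still have had as many as 3, which is 0.255 to 0.292 cpm, a unit that scales reads by library depth. Counting error alone is covered by this limit, and the methods of the study name no removal of PCR copies.

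The vacuolar ATPase (V-ATPase) acidifies lysosomes and endosomes. Its V1 sector hydrolyses ATP in the cytosol and turns a rotor in the V0 sector of the membrane, which moves protons into the lumen. The acid lumen lets cathepsins, most of them cysteine or aspartic proteases, mature and cut proteins. Ragulator holds the Rag GTPases on the lysosomal surface, where amino acids recruit the growth kinase complex mTORC1, and the pump takes part in this sensing. Many genes of lysosomal proteins carry E-boxes of the CLEAR type near their start sites, which TFEB and TFE3, transcription factors held in check by mTORC1, can bind.

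To show how far these genes share such promoter letters, the RefSeq windows from 250 bases before to 50 bases after each start site (assembly GRCm38.p6) were searched for CACGTG and for the longer CLEAR core TCACGTGA. Each motif reads the same on both strands, and every match of the longer one is also a match of the shorter one. Of the 50 genes, 38 had a window. CACGTG lay in the windows of 11 of the 38 genes (28.9%), beside 8.09% of all 27025 genes with a window, and TCACGTGA lay in 5 (13.2%), beside 1.12%. Among the 26 genes that also passed the filter on low values described below, 11 held CACGTG (42.3%), where 12.1% of all 8685 such genes did. The 12 genes with a window that were listed at 0 or missed the filter held none. A match is a description of the letters and not a site of binding.

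The 5 windows with the longer core belong to pump subunits of both sectors and to a pair of cathepsins, and they are shown because the CACGTG of a core begins within 12 bases of the start site in 3 of them. Capitals mark the motif, and each sequence is written 5′ to 3′ on the strand of its gene.
Atp6v0d1 (chr8:105566050-105566079, minus strand): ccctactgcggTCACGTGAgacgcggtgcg
Atp6v0e (chr17:26676387-26676416, plus strand): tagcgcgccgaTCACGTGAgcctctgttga
Atp6v1a (chr16:44139373-44139402, minus strand): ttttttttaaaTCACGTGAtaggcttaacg
Ctsa (chr2:164833758-164833787, plus strand): tgTCACGTGAtgcagatgcTCACGTGAcca
Ctsd (chr7:142387908-142387937, minus strand): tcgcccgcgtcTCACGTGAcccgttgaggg
In Ctsa, the start site lay between 2 copies of the core, and their inner CACGTG began 12 bases before it and 5 bases after it.

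Besides Ctsa and Ctsd, which held 2 copies of CACGTG each, 3 more windows held several. They are shown with the shorter motif in capitals and belong to Lamp1, a main glycoprotein of the lysosomal membrane, to Atp6v0b, a proteolipid of the rotor, and to Lamtor4 of Ragulator.
Lamp1 (chr8:13159096-13159155, plus strand): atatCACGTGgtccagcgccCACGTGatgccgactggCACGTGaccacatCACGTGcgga
Atp6v0b (chr4:117887338-117887369, minus strand): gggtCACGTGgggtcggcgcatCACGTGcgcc
Lamtor4 (chr5:138255358-138255387, plus strand): ttaaCACGTGaacagcttttCACGTGtaaa
Lamp1 held 4 copies, which began 61, 45, 28 and 15 bases before the start site. Ctsf, Ctsl and Lamtor1 held 1 copy each. Lamp2, the other LAMP gene, held none in its window.

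**Figure D1:**
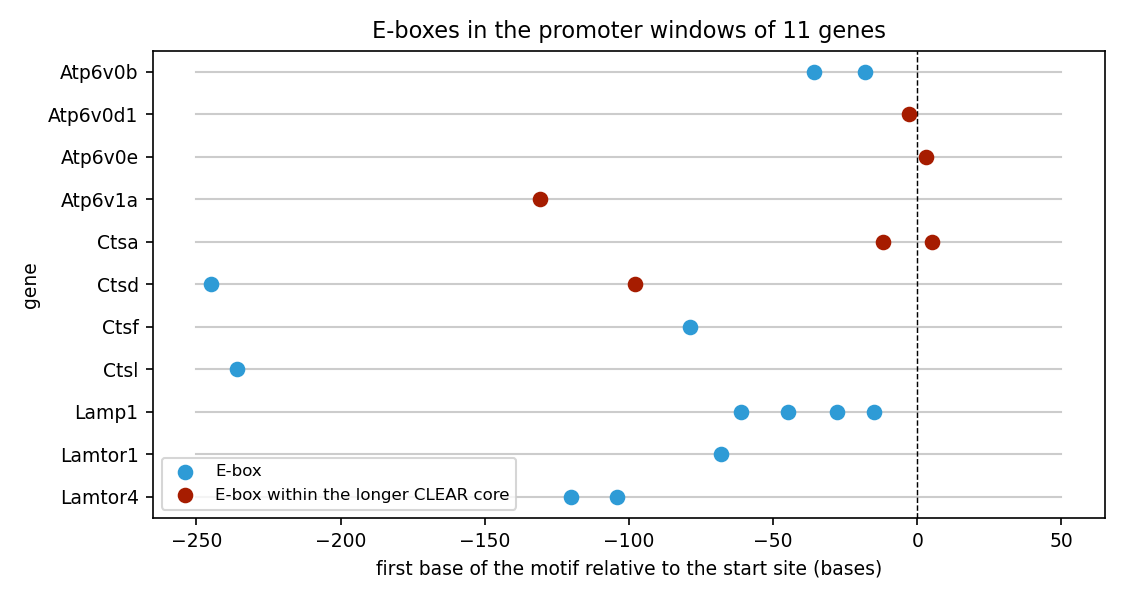
Position of E-boxes in the promoter windows of the 11 genes that hold one, in bases from the RefSeq start site (dashed line). Each grey line is a window from 250 bases before to 50 bases after the start site, blue points mark CACGTG and red points mark a copy within TCACGTGA, and the 4 copies of Lamp1 stand within 61 bases of the start site.

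Before the groups were compared, the libraries were compared with each other. PBS 1 stood apart from the other 3 libraries. It held the highest normalized count (reads divided by the size factor of the library) in 23 of the 37 genes of the set that were tested, beside 32.4% of all genes tested. The ratio of PBS 1 to the other libraries went down with the summed exon length of a gene, with a Spearman rho of −0.657 across the 2679 genes averaging at least 1000 reads and of −0.38 across the 37 genes of the set. The same rho across the 2679 genes was 0.569 for PBS 2, 0.399 for TSLP 1 and 0.303 for TSLP 2, and 0.52 for the log2 fold change of TSLP against PBS. These are correlations across genes, which are not independent and share the same 4 libraries. The 9 genes of the set with under 2000 bases of exon stood a median of 0.58 (log2) above the mean of the other libraries in PBS 1, near the 0.48 of the 1449 tested genes of that length. In the 16 genes of 2000 to 5000 bases, the median was 0.35, beside 0.15 for 4742 genes of that length. In the 12 genes of 5000 bases or more, the median was 0.06, beside −0.21 for 4753 genes of that length. Among these longer genes, the set thus stood higher in PBS 1 than all genes of like length. Foxp3, the defining factor of Treg cells, had 2514 reads in PBS 1 and 5065, 4784 and 4824 in PBS 2, TSLP 1 and TSLP 2. Il2ra, Ikzf2, Cd4 and Cd3e, also used as markers below, had their fewest reads in PBS 1 too. Ctla4 and Tnfrsf18 instead had their most there, with 14544 and 6025 reads. In PBS 2, TSLP 1 and TSLP 2, Ctla4 had 12245, 14091 and 12870 reads and Tnfrsf18 had 3736, 4189 and 4383. The values without PBS 1 are therefore given beside most of the differences below, and they set the TSLP libraries against PBS 2 alone.

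**Figure D2:**
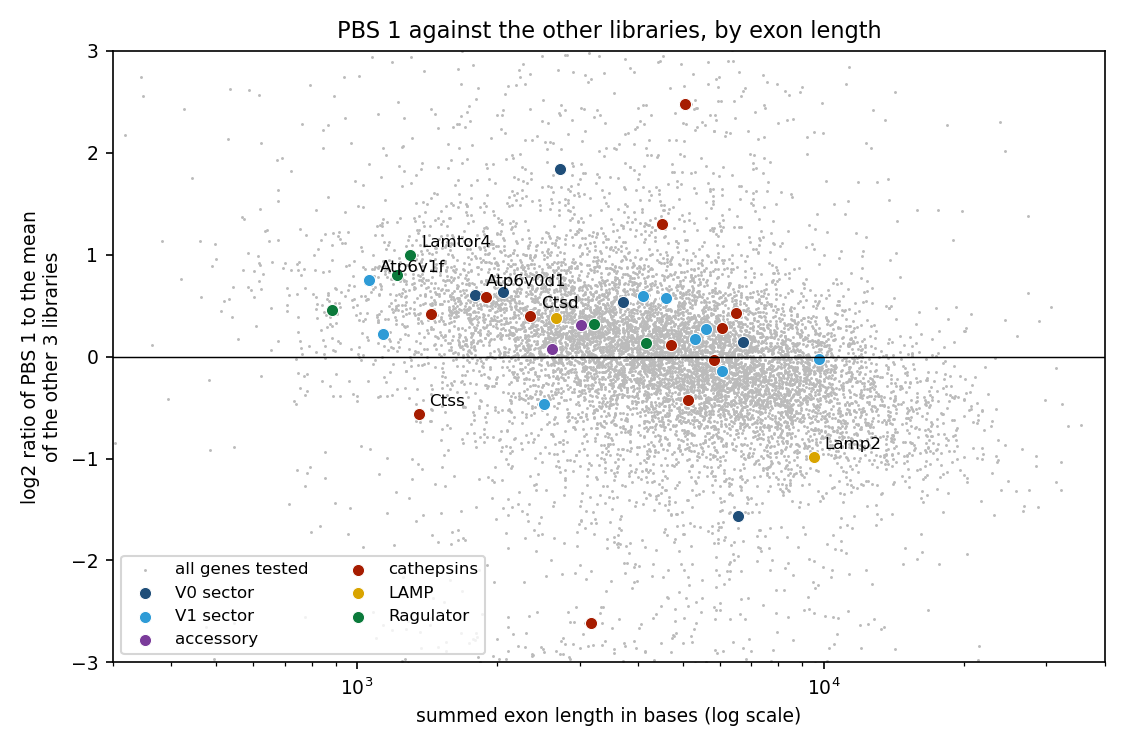
Log2 ratio between the normalized count in PBS 1 and the average of the other 3 libraries against summed exon length in bases (log axis). Grey points are all genes tested with an exon length, and coloured points are the 37 genes of the set. Short genes such as Lamtor4 and Atp6v1f lie above 0, while Lamp2, with 9552 bases, lies below it. Ctss, with 1358 bases, goes against the trend and also lies below 0.

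Per the methods of the study, CD4 T cells were first enriched magnetically. They were then gated on CD4, on 7-AAD, a dye of dead cells, and on the YFP of Foxp3. How fully this sort removed myeloid, B, CD8 T and NK cells and osteoclasts was not tested. The sorted cells carried Treg markers in every library. The 7 markers used were Foxp3, Il2ra, Ctla4, Ikzf2, Tnfrsf18, Cd4 and Cd3e, of which Cd4 and Cd3e are not specific to Treg cells. They summed to 3692, 4223, 4157 and 4463 cpm in PBS 1, PBS 2, TSLP 1 and TSLP 2, with Ctla4 the most abundant. The 6 myeloid markers summed to 2.30, 5.78, 3.66 and 7.98 cpm, with Lyz2 the most abundant over the libraries together but Itgam in PBS 1, and Adgre1, a defining marker of macrophages, was at 0 in every library. The 4 B cell markers, led by Cd79b, summed to 0.618, 10.4, 5.02 and 9.35 cpm. Among 4 neutrophil markers, Elane, Mpo and S100a9 were at 0 in every library, and S100a8 gave 1.07 cpm in TSLP 2. The part of these cells in the results below was not tested.

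Treg cells transcribed a nearly complete pump with few alternative subunits. Reads were found for 39 of the 50 genes, and 37 passed the filter on low values, which asked for normalized counts of 10 or more in 2 or more libraries: 7 of V0, 9 of V1, 2 accessory, 12 cathepsins, both LAMP genes and all 5 of Ragulator. The 11 genes listed at 0 in every library were Atp6v0a4, Atp6v0c, Atp6v1b1, Atp6v1c2, Atp6v1e2, Atp6ap1l, Ctsg, Ctsj, Ctsm, Ctsq and Ctsr. Atp6v0a4 and Atp6v1b1 are known from acid-secreting cells of the kidney, Atp6v1e2 from testis, Ctsg from neutrophil granules, and Ctsj, Ctsm, Ctsq and Ctsr from the rodent placenta. Atp6v0c (chr17:24163866-24169702, minus strand) is different, since it codes for the main proteolipid of the rotor, which every V-ATPase needs. Its 0 reads can therefore not be taken as a level. Of the 50-base stretches of its exons, 10.8% also occur in its pseudogenes Atp6v0c-ps1 and Atp6v0c-ps2, the latter also listed at 0, and its exons overlap no other gene. Gapdh, looked at after these values were seen, was also low, with normalized counts of 89.2, 37.02, 57.5 and 69.0 in PBS 1, PBS 2, TSLP 1 and TSLP 2, where Actb had 20466, 16239, 17818 and 17951. The cause of the 0 reads of Atp6v0c was not tested.

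Levels were compared between genes per length, as counts scaled to depth (cpm) and divided by the kilobases of exon (RPKM), with the mean over the 4 libraries. Exon length took in every annotated exon of a gene, whether or not these cells use it, and the order of genes depends on this choice. Ctsd, an aspartic protease, had the highest level, 93.0 ± 14.8 RPKM (SD, n = 4), although 34.4% of its exon bases also belong to Gm49369 on the same strand, so that its reads are uncertain. It was followed by Ctss, a cysteine protease of antigen processing, with 75.7 ± 14.4, by Atp6v0d1 with 73.0 ± 16.6 and by Lamp1 with 69.8 ± 9.63. Each of these 4 genes overlapped its neighbour in range, so their order does not exceed their spread. Atp6ap2, also known as the prorenin receptor, had 59.1 ± 2.28 RPKM, and its highest library, at 60.7, was below the lowest of Lamp1, at 62.1. The Ragulator genes had 23.4 ± 4.07 (Lamtor5), 20.7 ± 8.34 (Lamtor2), 11.02 ± 5.21 (Lamtor4), 10.4 ± 1.89 (Lamtor1) and 3.50 ± 1.13 RPKM (Lamtor3), and each overlapped the next in range except that Lamtor3 lay below every library of Lamtor1. Lamp2 was at 13.2 ± 3.96 RPKM.

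Where the pump has several genes for a subunit, 1 gene gave most of the reads in every library, except for subunit a. Subunit a, the stator of the proton path, came from Atp6v0a2 (39.3 to 48.9% of the summed RPKM of its genes over the 4 libraries) and from Tcirg1 (47.0 to 59.8%), which codes for the a3 form and lies outside the naming rule. Atp6v0a1 gave 0.913 to 4.14%. These shares depend on exon length, since by reads over the 4 libraries Atp6v0a2, with 4845, was above Tcirg1, with 3909. Subunit d, which joins the rotor to the central stalk, was almost all Atp6v0d1 (97.8 to 99.6%), with the rest from Atp6v0d2, a form known from osteoclasts. Subunit e came mostly from Atp6v0e (93.5 to 100%), and Atp6v0e2 gave the rest. Subunits B, C and E came entirely from Atp6v1b2, Atp6v1c1 and Atp6v1e1, as far as reads showed. Among the genes of subunit G, Atp6v1g1 gave 86.2 to 99.2%, and the lowest of these shares was in TSLP 1, where Atp6v1g2, a form known from neurons, reached 13.8%.

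**Figure D3:**
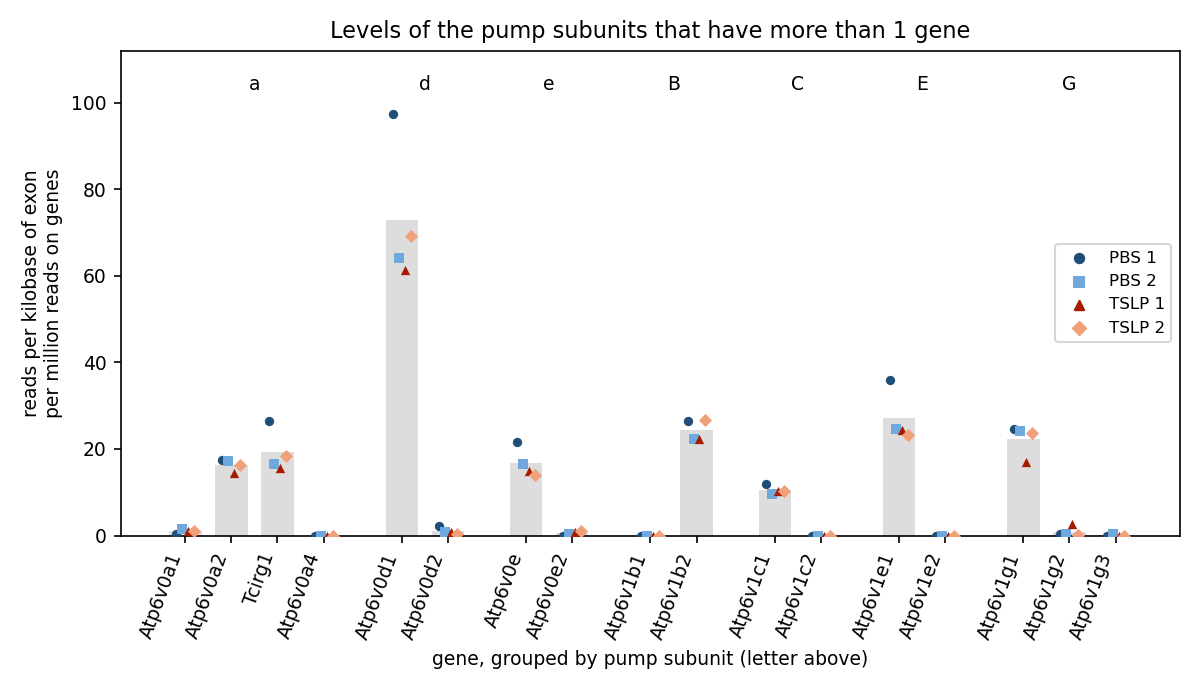
Level (RPKM) of each gene of the pump subunits encoded by more than 1 gene. Grey bars are means over the 4 libraries and points are libraries, and for subunits d, e, B, C, E and G a single gene stands far above its alternatives while subunit a is shared by Atp6v0a2 and Tcirg1.

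To determine whether TSLP changed the expression of these genes, TSLP libraries were compared with PBS libraries with limma in the 11392 genes that passed the filter, on the scale of log2(normalized count + 1). A log2 fold change is the TSLP mean minus the PBS mean on this scale, which depends on the pseudocount for genes with few reads. In bulk RNA, fewer cells of a type and less RNA per cell cannot be told apart. No gene of the set passed the test. With limma and Benjamini-Hochberg adjustment over all genes, 0 of 11392 genes (0.0%) had an adjusted p under 0.05, the set included, and edgeR and DESeq2 on the recovered reads also called 0. At an unadjusted p under 0.05, limma called 0 of the 37 genes of the set, beside 192 of all genes (1.69%), and edgeR and DESeq2 also called 0 of the 37, beside 234 each of all genes. The smallest adjusted p in the set was 0.9999 (limma, Benjamini-Hochberg).

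By direction, 13 of the 37 genes had a higher mean of log values with TSLP and 24 a lower one, with a median log2 fold change of −0.09, beside 0.01 over all genes tested. Without PBS 1 the balance turned, to 22 higher and 15 lower and a median of 0.08, beside −0.01 over all genes. The groups did not overlap in 12 of the 37 genes (32.4%), close to the 28.9% of all genes. Both TSLP libraries were above both PBS libraries in 4 of them (Atp6v0e2, Atp6v1h, Ctsc and Lamp2), where 14.5% of all genes were, and below them in 8 (Atp6v0a2, Atp6v0d2, Atp6v0e, Atp6v1g1, Ctsa, Ctsw, Lamp1 and Lamtor1), where 14.4% were. The 11 genes with CACGTG in their window had a median of −0.24 in log2 fold change, with 2 higher and 9 lower, and the other 15 genes with a window had −0.07. This too rested on PBS 1, without which the 11 genes were 6 higher and 5 lower with a median of 0.05, and the other 15 had 0.12.

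**Figure D4:**
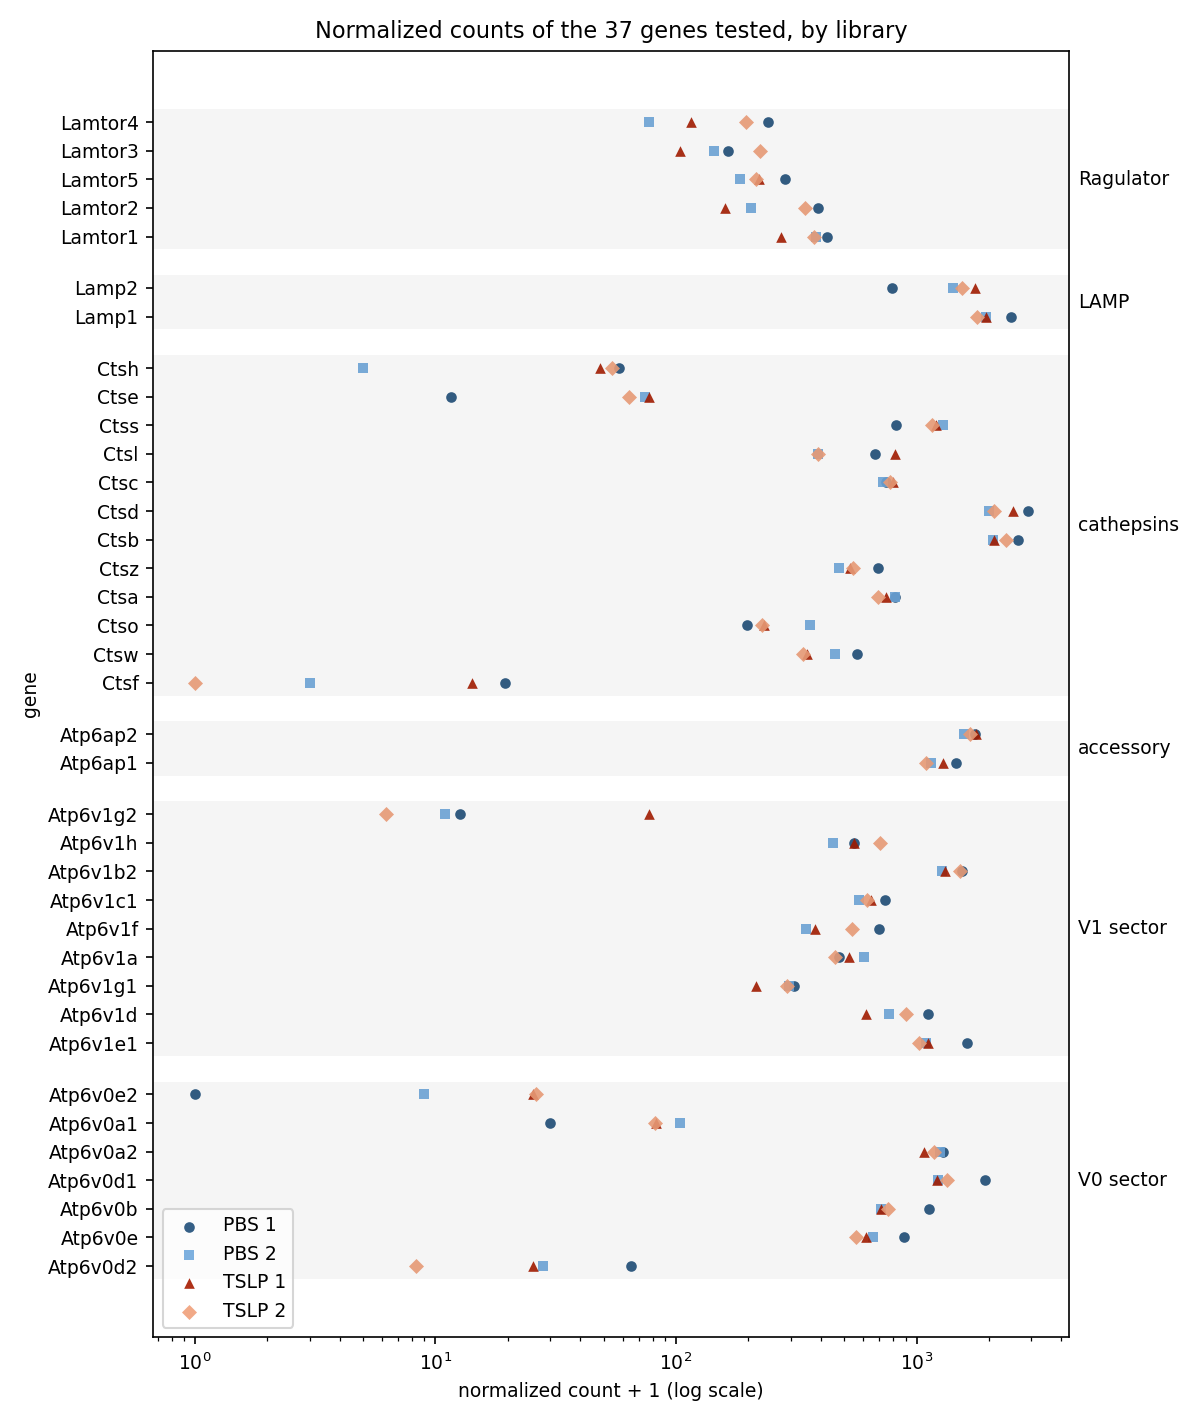
Normalized count + 1 (log axis) of the 37 genes tested, 1 row a gene, grouped by role. Blue symbols are PBS libraries and red or orange symbols are TSLP libraries, and PBS 1 (dark circles) is the highest library in 23 rows.

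With every library kept, the genes of the V0 sector had the lowest median log2 fold change of the roles in the set, −0.27 over 7 genes, with 2 higher and 5 lower and none past the test. Their summed normalized count was 5302 in PBS 1 and 3987, 3754 and 3944 in PBS 2, TSLP 1 and TSLP 2, so that PBS 1 alone stood high. The median was −0.15 without PBS 1 and −0.59 without PBS 2. Without TSLP 2 it was −0.31, and that of Ragulator was lower, at −0.56.

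Atp6v0d1 (chr8:105524465-105566047, minus strand), the subunit with the most reads, had 1918 normalized counts in PBS 1, 1232 in PBS 2, and then 1218 and 1333 in TSLP 1 and TSLP 2. Again PBS 1 was high and the other 3 libraries lay close together. The means were 1575 ± 485 with PBS and 1276 ± 81.6 with TSLP (SD, n = 2 each), with a log2 fold change of −0.27 (standard error 0.26, limma, unadjusted p = 0.331). Without PBS 1 it was 0.05. Atp6v0b, the proteolipid with a pair of E-boxes, had the same shape, with 1123 in PBS 1 and 709 to 759 in the other libraries, and a log2 fold change of −0.28 that became 0.05 without PBS 1.

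Atp6v0e, a small membrane subunit, had normalized counts of 883 and 660.3 with PBS and of 617 and 559 with TSLP. All TSLP values lay below the PBS values, but within PBS the gap was wider than that between PBS 2 and TSLP 1, and the log2 fold change of −0.38 (standard error 0.26, limma, unadjusted p = 0.185) became −0.17 without PBS 1. Atp6v0a2 differed less, with a log2 fold change of −0.17 (standard error 0.22). It was −0.15 without PBS 1 and ran from −0.23 without TSLP 2 to −0.10 without TSLP 1. Atp6v0a1 had a log2 fold change of 0.56, which turned to −0.34 without PBS 1 and was 0.30 by edgeR.

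The largest values of the sector belonged to its rare genes. Atp6v0e2 had 0 and 8 reads in PBS 1 and PBS 2 and 26 and 24 reads in TSLP 1 and TSLP 2, so that the groups did not overlap. Its log2 fold change was 3.10 (standard error 1.76, limma, unadjusted p = 0.112), with a 95% interval from −0.88 to 7.08, and was 1.52 without PBS 1, 4.69 without PBS 2 and 2.60 by edgeR. Atp6v0d2 was counted with 66 and 27 reads under PBS and 26 and 7 under TSLP, where PBS 2 and TSLP 1 were nearly equal. The log2 fold change came to −1.55 (standard error 1.07, limma, unadjusted p = 0.181) and to −0.94 without PBS 1, −2.36 without TSLP 1 and −0.74 without TSLP 2.

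The V1 sector had a median log2 fold change of −0.12 over 9 genes, with 3 higher and 6 lower and none past the test. Without PBS 1 the median was 0.14, so its direction rested on that library. Atp6v1b2, the nucleotide-binding subunit B and the gene of the sector with the most reads, had normalized counts of 1537 and 1275 with PBS and of 1317 and 1518 with TSLP. The groups overlapped fully, and the log2 fold change was 0.01 (standard error 0.23), with a 95% interval from −0.50 to 0.53, and 0.15 without PBS 1. Atp6v1a, the catalytic subunit with the longer core in its promoter, had 476 and 606 with PBS and 525 and 457 with TSLP, and a log2 fold change of −0.13 (standard error 0.28), or −0.31 without PBS 1 and 0.04 without PBS 2.

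Atp6v1e1, part of the outer stalks, had the lowest log2 fold change of the sector. Its normalized counts were 1622 and 1091 with PBS and 1114 and 1021 with TSLP, so that 3 libraries lay together and PBS 1 above them. The log2 fold change was −0.32 (standard error 0.26, limma, unadjusted p = 0.248) and −0.03 without PBS 1. Atp6v1d and Atp6v1f, both of the central rotor, were also highest in PBS 1, with 1119 and 695 there and log2 fold changes of −0.31 and −0.12. Without PBS 1 these were −0.04 and 0.38, and that of Atp6v1f was 0.02 after the trend over exon length was removed. Atp6v1h, a regulatory subunit whose 9746 bases of exon make it the longest gene of the set, had 549.6 and 449 with PBS and 551 and 701 with TSLP, with no overlap and a log2 fold change of 0.32 (standard error 0.28). The value was 0.15 after the trend over exon length was removed and 0.47 without PBS 1. It was also 0.15 without TSLP 2, the library with the highest count.

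Atp6v1g2 shows how 1 library can set a value. The PBS libraries held 12 and 10 reads and the TSLP libraries 81 and 5, so that TSLP 1 alone was high. Its log2 fold change of 0.90 (standard error 1.46, limma, unadjusted p = 0.555) was −0.92 without TSLP 1, 0.995 without PBS 1 and 1.90 by edgeR on the reads. Atp6v1g1 was lower in both TSLP libraries (−0.27, standard error 0.34, or −0.24 without PBS 1 and −0.06 without TSLP 1), but 19.2% of its 50-base stretches also occur in the pseudogenes Gm13453 and Gm12344. Atp6v1c1 had a log2 fold change of −0.04, or 0.14 without PBS 1. Atp6v1g3 had 8 reads in PBS 2 and 0 in the other libraries and missed the filter.

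The accessory proteins help the pump to assemble and to reach its place. Atp6ap1 had normalized counts of 1454 and 1153 with PBS and of 1283 and 1089 with TSLP, and a log2 fold change of −0.13 (standard error 0.24), or 0.04 without PBS 1. Atp6ap2 varied little, with 1746 and 1569.8 with PBS and 1762 and 1663 with TSLP, and a log2 fold change of 0.05 (standard error 0.21), with a 95% interval from −0.44 to 0.53, and 0.12 without PBS 1. The intervals of both genes leave room for a change of either sign.

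**Figure D5:**
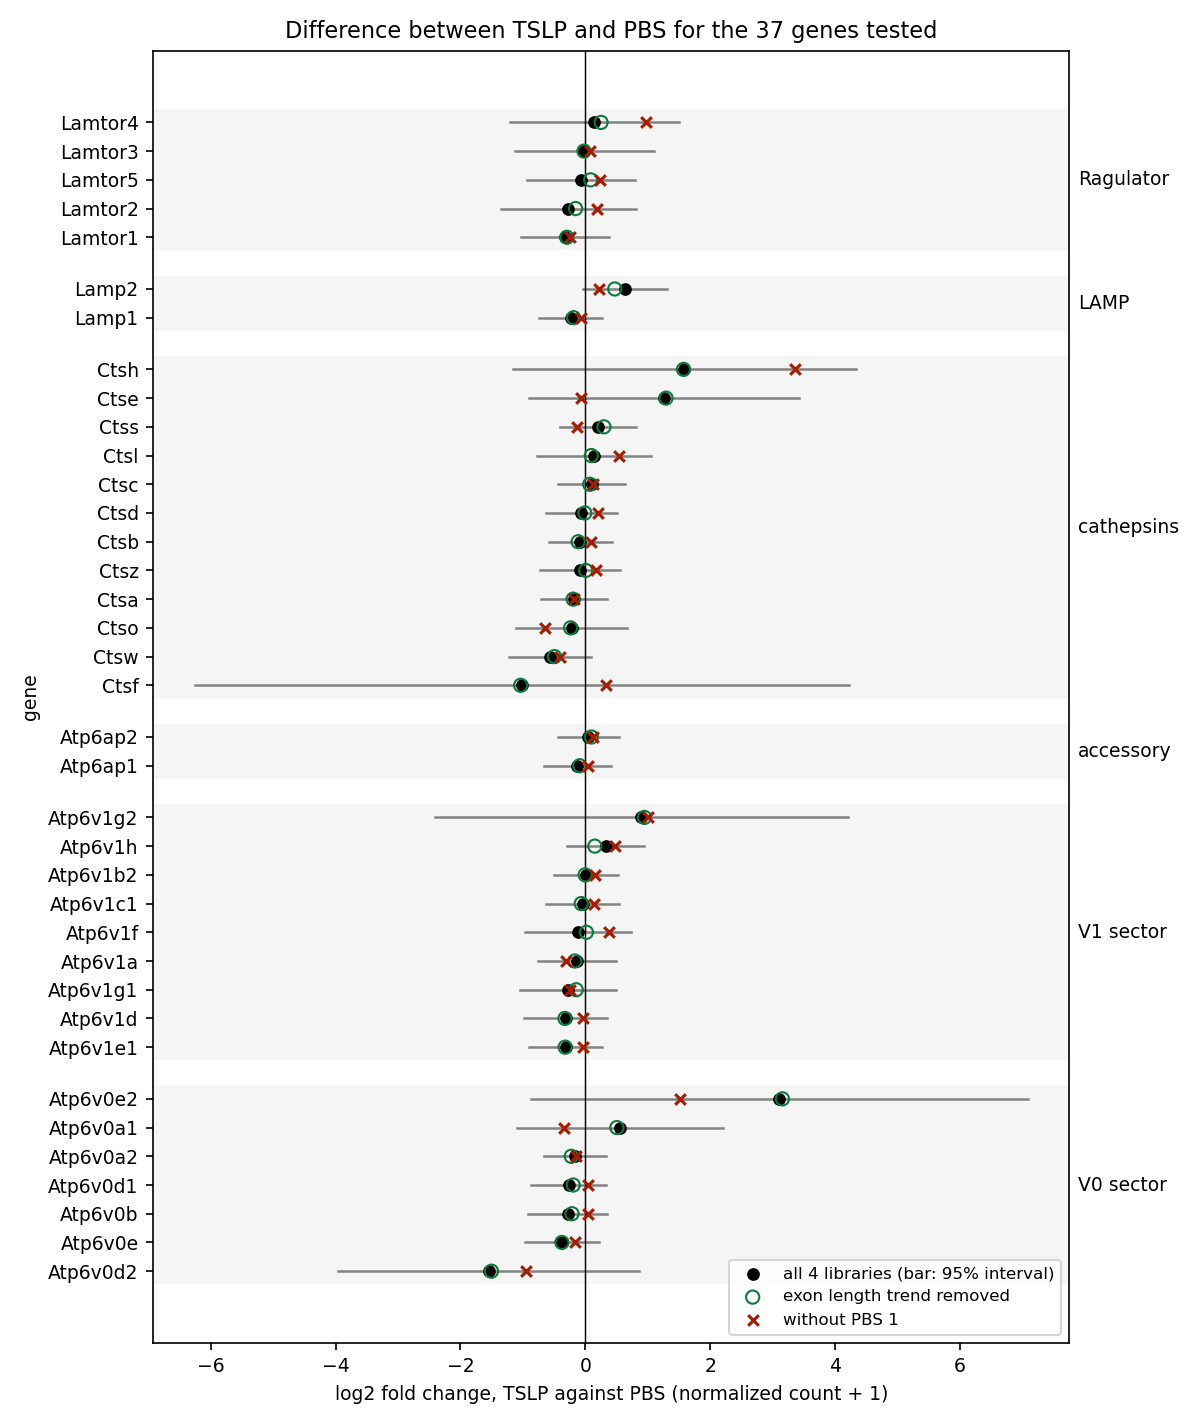
Log2 fold change of TSLP against PBS for the 37 genes tested, grouped by role, on the scale of log2(normalized count + 1). Black points with bars are limma estimates with 95% intervals over all 4 libraries, green circles are estimates after the trend over exon length was removed and red crosses are estimates without PBS 1, and every bar crosses 0.

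The cathepsins had a median log2 fold change of −0.07 over 12 genes, with 5 higher and 7 lower and none past the test. Without PBS 1 the median was 0.11, and without PBS 2 it was −0.22. Ctsd (chr7:142375911-142388038, minus strand), the cathepsin with the most reads, had normalized counts of 2893 and 2003 with PBS and of 2528 and 2103 with TSLP. The groups overlapped, and the log2 fold change was −0.06 (standard error 0.25), with a 95% interval from −0.63 to 0.50, and 0.20 without PBS 1. Ctsb, a cysteine protease, was close to it in reads, with 2631 and 2082 with PBS and 2090.5 and 2345 with TSLP and a log2 fold change of −0.08, which was 0.09 without PBS 1, and 12.1% of its 50-base stretches also occur in Fdft1, which overlaps it.

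Ctss had 821 in PBS 1 and between 1155 and 1289.7 in the other libraries, which is the reverse of the usual place of PBS 1. Its log2 fold change of 0.20 (standard error 0.27) was −0.13 without PBS 1. Ctsl, another cysteine protease, varied more within groups than between them, with 671 and 387 with PBS and 812 and 389.8 with TSLP, and its log2 fold change of 0.14 was 0.54 without PBS 1 but −0.25 without PBS 2 and −0.39 without TSLP 1. Here too reads are uncertain, since 26.3% of its 50-base stretches also occur in other genes. Ctsc, which activates granule proteases, was a steady gene, with 747 and 722 with PBS and, without overlap, 799.8 and 775 with TSLP, and its log2 fold change was 0.10 (standard error 0.24), or 0.12 without PBS 1. Ctsa, a carboxypeptidase that also protects other lysosomal enzymes, had 809 and 816 with PBS and 745 and 689.7 with TSLP, and a log2 fold change of −0.18 (standard error 0.24), or −0.19 without PBS 1. Ctsz and Ctso had log2 fold changes of −0.09 and −0.22, which became 0.18 and −0.65 without PBS 1 and −0.35 and 0.21 without PBS 2.

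Among the cathepsins with over 100 reads in every library, the largest difference was that of Ctsw (chr19:5465043-5468507, minus strand), a protease known from CD8 T and NK cells, which was singled out after its values were seen. Its normalized counts were 565 and 456 with PBS and 349.5 and 335 with TSLP. Both TSLP libraries were low and close together. The means were 511 ± 77.0 with PBS and 342 ± 9.93 with TSLP (SD, n = 2 each), with a log2 fold change of −0.57 (standard error 0.29, limma, unadjusted p = 0.0799, Benjamini-Hochberg adjusted p = 0.9999). The value was −0.41 without PBS 1, where Ctso (−0.65) and Ctsl (0.54) differed more. Without TSLP 2 the value of Ctsw was −0.54, and Ctsl differed more, at 0.67. The 5 markers of CD8 T and NK cells, led by Gzmb, which Treg cells can also express, summed to 39.5 and 24.3 cpm with PBS and to 30.3 and 31.2 cpm with TSLP. Cd8b1 had 120, 76, 94 and 95 reads in PBS 1, PBS 2, TSLP 1 and TSLP 2. In the same order, Cd8a had 32, 8, 10 and 28 and Klrb1c had 8, 0, 5 and 25, while Ncr1 was at 0. Whether the gate on CD4 and YFP left such cells behind, and their part in the values of Ctsw, was not tested.

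The rare cathepsins varied widely. Ctsh, an aminopeptidase, was counted with 59 and 4 reads under PBS and 50 and 51 under TSLP, so that PBS 2 alone was low, and its log2 fold change of 1.58 (standard error 1.21, limma, unadjusted p = 0.225) was −0.19 without PBS 2, 3.35 without PBS 1 and 0.71 by edgeR on the reads. Ctse, an aspartic protease, was instead low in PBS 1 alone, with 11 reads there and 73, 81 and 60 in PBS 2, TSLP 1 and TSLP 2, and its log2 fold change of 1.26 was −0.08 without PBS 1 and 0.73 by edgeR. Ctsf had 19, 2, 14 and 0 reads in that order and a log2 fold change of −1.02 (standard error 2.32), which was 0.33 without PBS 1 and −0.62 by edgeR.

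Ctsk (chr3:95499256-95509362, plus strand), the collagen-cutting protease of osteoclasts, had 78 reads in PBS 1 and 9 in PBS 2, and 0 in TSLP 1 and TSLP 2. It missed the filter because its normalized count in PBS 2, at 9.005, was just under 10. Set against the limit of 3 reads per library in TSLP, the PBS mean was at least 14.2-fold higher. Without PBS 1, which holds most of the reads, it was at least 3.02-fold higher. These values leave out the spread between the PBS libraries. Of 3 osteoclast markers, Calcr was at 0 in every library and Oscar had 5 reads in PBS 2, while Acp5, also made by other cells, gave nearly all of the sums of 63.5, 50.9, 50.7 and 68.6 cpm in PBS 1, PBS 2, TSLP 1 and TSLP 2. Of the myeloid markers, Itgam was read 23, 19, 4 and 7 times in the same order of libraries, Lyz2 1, 43, 37 and 40 times and Csf1r 1, 0, 1 and 27 times. Whether the sort left osteoclasts or myeloid cells behind, and their part in the reads of Ctsk, was not tested.

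The LAMP genes differed in opposite directions by value, and neither passed the test. Lamp2 (chrX:38401357-38456454, minus strand), which also codes for the receptor of chaperone-mediated autophagy, had the smallest p of the set. It had 786 normalized counts in PBS 1, 1414 in PBS 2, and then 1746 and 1540.4 in TSLP 1 and TSLP 2. TSLP libraries were above both PBS libraries, and PBS 1 stood far below the others. The means were 1099.9 ± 444 with PBS and 1643 ± 145 with TSLP (SD, n = 2 each), with a log2 fold change of 0.64 (standard error 0.30, 95% interval from −0.03 to 1.31, limma, unadjusted p = 0.0596, Benjamini-Hochberg adjusted p = 0.9999). It was 0.47 after the trend over exon length was removed, 0.21 without PBS 1 and 1.06 without PBS 2.

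Lamp1 (chr8:13159161-13175338, plus strand) had normalized counts of 2461 and 1947 with PBS and of 1937 and 1784 with TSLP. The groups did not overlap, but PBS 2 and TSLP 1 were nearly equal. With means of 2204 ± 363 and 1860.4 ± 108 (SD, n = 2 each), the log2 fold change was −0.24 (standard error 0.22, limma, unadjusted p = 0.321), and it was −0.07 without PBS 1. Its 2675 bases of exon make it much shorter than Lamp2, and 9.3% of them lie in Grtp1 on the other strand.

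In the 5 Ragulator genes, of which 1 was higher and 4 were lower and none passed the test, the median log2 fold change was −0.07. It was 0.19 without PBS 1. This median ran from −0.56 without TSLP 2 to 0.28 without TSLP 1, since TSLP 1 was low and PBS 1 and TSLP 2 were high in most of the genes. Summed over the complex, PBS 1 held 1498 normalized counts, PBS 2 989, TSLP 1 869.5 and TSLP 2 1348, so that libraries within a group differed more than the groups.

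Lamtor1, the lipid anchor that holds the complex on the lysosome, had normalized counts of 425 and 381 with PBS and of 273 and 375 with TSLP. It was the only one of the 5 whose groups did not overlap, with a log2 fold change of −0.33 (standard error 0.31, limma, unadjusted p = 0.322), or −0.25 without PBS 1, but 25.6% of its 50-base stretches also occur in other genes, among them Lrrc51, which overlaps it. Lamtor2 and Lamtor3 form a pair within the complex. Lamtor2 had 389.6 and 204 with PBS and 158 and 344 with TSLP, with a log2 fold change of −0.27 (standard error 0.48), or 0.19 without PBS 1. Lamtor3 had 163 and 143 with PBS and 103 and 222 with TSLP, with a log2 fold change of −0.02 (standard error 0.49), or 0.08 by edgeR and DESeq2 and without PBS 1.

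Lamtor4 and Lamtor5 form the other pair. Lamtor4 had 239 and 76.0 with PBS and 115 and 194 with TSLP, so that both extremes lay in the PBS group, and its log2 fold change of 0.15 (standard error 0.60) was −0.03 by edgeR and DESeq2, 0.97 without PBS 1 and −0.68 without PBS 2. Lamtor5 had 282 and 184 with PBS and 220.4 and 213 with TSLP, with a log2 fold change of −0.07 (standard error 0.38) and of 0.08 after the trend over exon length was removed and 0.23 without PBS 1, and 14.5% of its 50-base stretches also occur in pseudogenes. With standard errors of 0.31 to 0.60, none of the 5 genes can be said to differ, and a change of either sign stays within their intervals.

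Next, 57 other genes of the lysosome in 7 lists were examined for comparison. Of the 53 tested, 26 were higher and 27 lower with TSLP, the median was −0.02 (log2 fold change), and the groups did not overlap in 20 (37.7%), beside 28.9% of all genes. The 7 genes of the a3 subunit and of pump assembly had a median of −0.30, with 3 higher and 4 lower. Tcirg1 had 1378, 820, 839 and 872 reads in PBS 1, PBS 2, TSLP 1 and TSLP 2, with PBS 1 high as in Atp6v0d1, and a log2 fold change of −0.30 (standard error 0.28), or 0.05 without PBS 1. In that list Ccdc115, an assembly factor, had the lowest log2 fold change (−0.79, standard error 0.42) and Dmxl1 the highest (0.46, standard error 0.31). Without PBS 1, Ccdc115 was at −0.57 and Dmxl1 at −0.03 (0.12 after the trend over exon length was removed), and the median of the list was −0.03.

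The partners of Ragulator gave no call either. The Rag GTPases had log2 fold changes of −0.05 (Rraga), −0.52 (Rragb), 0.12 (Rragc) and 0.38 (Rragd), which without PBS 1 were 0.27, −0.65, 0.22 and 0.28. Rragc was at 0.01 without TSLP 1, and Rragd was at 0.20 without TSLP 2. Over the 9 genes of amino acid sensing the median was 0.05, or 0.22 without PBS 1, with 6 higher and 3 lower. Fnip2, a partner of folliculin, was the highest of them with 0.77 (standard error 0.63) and Rragb the lowest. Its reads were 56, 54, 141 and 62 in PBS 1, PBS 2, TSLP 1 and TSLP 2, so that TSLP 1 alone was high, and without that library it was at 0.25, below Rragd at 0.56. TFEB and TFE3 were present as transcripts, with 152, 96, 148 and 83 reads of Tfeb and 689, 767, 765 and 736 of Tfe3 in PBS 1, PBS 2, TSLP 1 and TSLP 2. On the log2 scale, Tfeb differed by −0.11 (standard error 0.52) and Tfe3 by 0.06 (standard error 0.24), and both signs turned without PBS 1, to 0.19 and −0.04. Of their relatives, Mitf had 7 reads in PBS 2 and 12 in TSLP 1, and Tfec was at 0.

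Of the acid hydrolases, Gaa (chr11:119267887-119285454, plus strand), which breaks down glycogen, was the only one of the 53 other genes with an unadjusted p under 0.05, a threshold that 1.69% of all genes passed. The PBS libraries held 161 and 172 of its reads and the TSLP libraries 75 and 55, so that the groups were well apart. Its log2 fold change was −1.35 (standard error 0.50, limma, unadjusted p = 0.0241, Benjamini-Hochberg adjusted p = 0.9999), and leaving out a library moved it between −1.50 and −1.20. Of the 18 acid hydrolases, 9 were higher and 9 lower with a median of 0.00, which ran from −0.24 without TSLP 1 to 0.08 without PBS 1, and the groups did not overlap in 8 (44.4%), beside 28.9% of all genes. Naglu, an enzyme of heparan sulfate breakdown, was highest with 0.94 (standard error 0.72), and its value ran from 0.54 without TSLP 1 to 1.35 without TSLP 2. Among genes that sort enzymes to lysosomes, Gnptab, which makes the mannose 6-phosphate tag, was read 96 and 310 times under PBS and 310 and 523 times under TSLP, with a log2 fold change of 1.23 (standard error 0.56, limma, unadjusted p = 0.0574), or 0.36 without PBS 1. Gnptg, a subunit of the same enzyme, had −0.30, or −0.12 without PBS 1, −0.72 without TSLP 1 and 0.13 without TSLP 2. Cd68, lowest among 8 membrane proteins, was read 174 and 66 times under PBS and 59 and 16 times under TSLP, with a log2 fold change of −1.75 (standard error 0.82, limma, unadjusted p = 0.0601), or −1.08 without PBS 1, and Ctns, a cystine exporter, was highest with 0.51. Cd68 is also known from myeloid cells, whose marker Itgam, as given beside Ctsk, was lower in both TSLP libraries too, while Lyz2 was not. The part of such cells in the reads of Cd68 was not tested. Of 5 cathepsin inhibitors and processing enzymes, 1 was higher and 4 lower, from −0.49 (Cst7) to 0.70 (Lgmn), which without PBS 1 were −0.03 and 1.72, and all 5 had their highest count in PBS 1.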

How the data were processed

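Libraries of sorted Treg cells (NEBNext Ultra II Directional, 50-base single-end reads) were mapped by the authors to mm10 with HISAT2 and counted with HTSeq; the annotation and the strand setting are not given in the sources used here, so reads of overlapping antisense genes cannot be told apart. The signal deposited by the authors is the count of a gene divided by the library's DESeq2 size factor (0.957 to 1.0615), and 100% of these values came out as whole reads within 0.01. Genes at 0 in every library are listed among these values, and 27 gene names had turned into dates. Genes that reached a normalized count of 10 in 2 or more libraries were tested with limma 3.58.1 (lmFit, eBayes with trend) in R 4.3.3 on log2(normalized count + 1), with two-sided p-values and Benjamini-Hochberg adjustment over 11392 genes. edgeR 4.0.16 (quasi-likelihood) and DESeq2 1.42.0 on recovered reads were alternatives, beside other scalings, filters and pseudocounts, a replicate block, removal of the trend over exon length (loess, span 0.3) and leaving out each library. On simulated data with 200 changed genes, limma called 21, 108 and 162, edgeR 33, 121 and 168 and DESeq2 39, 123 and 174 of them at log2 changes of 1, 2 and 4. Among the unchanged genes of the same simulations, limma called 2, 3 and 10, edgeR 6, 4 and 11 and DESeq2 14, 27 and 32.

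The members and lists were chosen with earlier results of these data known, so no list carries a p of its own. In each role, the genes given in full were that with the most reads, those with the highest and lowest log2 fold change among tested genes, and all LAMP and Ragulator genes. Of the other lysosome genes, Tcirg1, the Rag GTPase genes, those with an unadjusted p under 0.05 and the highest and lowest of each list were named. Positions and exon lengths came from GENCODE M21 (GRCm38, the mm10 assembly), promoter windows from RefSeq on GRCm38.p6. Of the 24418 genes, 23307 had a unique exon length.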

Additional observations from a re-analysis of the deposited data

How the results depend on the processing

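No alternative brought an adjusted p under 0.05 for a named gene of the set, and the smallest was 0.262. At an unadjusted p under 0.05, limma called 0 of the 37 genes of the set, 1 of the other lysosome genes and 192 of all genes. With no filter on low values these counts were 2 (Ctsk and Lamp2), 2 and 358. With a minimum of 50 they were 1 (Lamp2), 2 and 193, and with a pseudocount of 10 they were 1 (Lamp2), 3 and 256. Removal of the trend over exon length gave 2 other lysosome genes (Gaa and Gnptab) and 204 of all genes, and 3 and 286 with the replicate block added, where Cd68 joined them. Replicates of PBS and TSLP share numbers, but the deviations of same-numbered libraries correlated at 0.00072, so the numbers are not shown to pair them. The replicate block gave 1 gene of the set (Lamp2), 3 other lysosome genes and 258 of all genes, and changed no other call. The unadjusted p of Lamp2 ran from 0.0416 to 0.0824 and that of Ctsw from 0.0759 to 0.123 over all alternatives that kept every library.

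Without a library, its group holds 1 sample, which is then assumed to vary like the other group. The counts ran from 79 (without TSLP 2) to 1858 (without PBS 2) for all genes, from 0 to 9 for the set and from 0 to 5 for the other lysosome genes. The 9 genes appeared without PBS 2, where PBS 1 alone stands for PBS, and without PBS 1 there was 1 (Ctsh). Medians ran from −0.59 to −0.15 for V0, from −0.22 to 0.14 for V1, from −0.22 to 0.11 for cathepsins and from −0.56 to 0.28 for Ragulator. Log2 fold changes took both signs for 12 of the 18 genes given in full: Atp6ap1 (−0.30 to 0.0364), Atp6ap2 (−0.0285 to 0.12), Atp6v0d1 (−0.59 to 0.0493), Atp6v1b2 (−0.12 to 0.15), Atp6v1g2 (−0.92 to 2.71), Ctsd (−0.33 to 0.20), Ctsf (−2.93 to 0.89), Ctsh (−0.19 to 3.35), Lamtor2 (−0.83 to 0.28), Lamtor3 (−0.57 to 0.53), Lamtor4 (−0.68 to 0.97) and Lamtor5 (−0.38 to 0.23). The sign held in Atp6v0d2 (−2.36 to −0.74), Atp6v0e2 (1.52 to 4.69), Atp6v1e1 (−0.60 to −0.03), Lamp1 (−0.40 to −0.07), Lamp2 (0.21 to 1.06) and Lamtor1 (−0.56 to −0.10). Of the other 19 genes tested, 11 took both signs: Atp6v0a1 (−0.34 to 1.45), Atp6v0b (−0.61 to 0.05), Atp6v1a (−0.31 to 0.04), Atp6v1c1 (−0.22 to 0.14), Atp6v1f (−0.62 to 0.38), Ctsb (−0.25 to 0.09), Ctse (−0.08 to 2.59), Ctsl (−0.39 to 0.67), Ctso (−0.65 to 0.21), Ctss (−0.13 to 0.52) and Ctsz (−0.35 to 0.18). So did 27 of the 53 other lysosome genes, Tcirg1 (−0.65 to 0.05), Dmxl1 (−0.03 to 0.95), Lgmn (−0.33 to 1.72) and Cst7 (−1.28 to 0.30) among them, while Gnptab (0.36 to 2.09), Cd68 (−2.59 to −0.91) and Fnip2 (0.25 to 1.28) kept their sign. With every library kept, the sign turned in 4 of the 18 genes given in full: Lamtor3 (0.0798 by edgeR, 0.0827 by DESeq2 and 0.0823 by edgeR with DESeq2 size factors), Lamtor4 (−0.0323, −0.0294 and −0.0300 by the same tests) and, after the exon length trend was removed, Atp6v1b2 (−0.0041) and Lamtor5 (0.0845), with or without the block. The cause was not tested. At 2 libraries a group, changes of 2-fold or less are mostly not detectable, and many larger ones are missed too. In the simulation limma called 21, edgeR 33 and DESeq2 39 of 200 genes at a log2 change of 1. At a log2 change of 2, limma called 108, edgeR 121 and DESeq2 123 of 200.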
